A study of Arabidopsis thaliana with 18 samples.

Results

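LONESOME HIGHWAY (LHW), a pair of basic helix-loop-helix (bHLH) factors and 4 further regulators of root vascular tissue were followed in roots carrying an inducible TMO5. The 7 genes were taken from a list chosen with earlier results of these data known. They were matched by symbol or locus to the array features that the platform's annotation assigns to exactly 1 gene. They are LHW (AT2G27230), bHLH106 (AT2G41130), bHLH107 (AT3G56770), PEAR2 (AT5G02460), DOF2.1 (AT2G28510), PHAVOLUTA (PHV, AT1G30490) and OCTOPUS (OPS, AT3G09070). All 7 genes were found, on 8 of the 16722 features of exactly 1 gene and of 38408 features in all. AT3G56770 has 2 of them, called feature 1 (13460894) and feature 2 (13460897) here, and each of the others has 1.

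TMO5 and LHW form a bHLH heterodimer that promotes the longitudinal divisions by which vascular cell files multiply, and raises local cytokinin production. bHLH106 and bHLH107 belong to the TMO5 side of this pairing, as close relatives of TMO5. PEAR2 and DOF2.1 are Dof zinc finger factors, the first known from the early phloem and the second as a gene reported to act downstream of TMO5 and LHW. PHV is a class III homeodomain-leucine zipper factor whose transcript is confined to the stele by microRNAs and which opposes PEAR activity, and OPS is a membrane-associated protein that promotes the differentiation of early phloem.

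The study holds 18 arrays of Arabidopsis thaliana seedlings 4 days old, 3 for each of 6 groups. Root tips came from Col-0 plants with the construct pRPS5A-TMO5-GR, driven by a promoter known from dividing cells, after 1 h of treatment. These tips were kept on MS medium alone (root MS) or given dexamethasone (root DEX), cycloheximide (root CHX) or the combination (root DEX+CHX). The remaining 2 groups are cells sorted for GFP out of protoplasted roots of C24 plants with J0571>>pUAS-TMO5-GR, after 2 h without (J0571 control) or with dexamethasone (J0571 DEX). The J0571 enhancer trap drives expression in cortex and endodermis. TMO5-GR is a fusion of TMO5 to the glucocorticoid receptor that enters the nucleus when dexamethasone is present, and cycloheximide blocks protein synthesis. Every group carries TMO5-GR, so an effect of dexamethasone itself and one of induced TMO5-GR cannot be told apart. TMO5 itself is not analysed here.

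Values are log2 signals after RMA normalization, given per array in the order of replicates 1, 2 and 3, and group values are means ± SD with n = 3. The arrays' median log2 signal was 4.76 to 4.87 in root MS and root DEX, 4.61 to 4.65 on the 6 root arrays with cycloheximide, and 4.50 to 4.58 in the J0571 groups. LHW, bHLH106, PEAR2, DOF2.1 and PHV lay above the array median on all 18 arrays. Both OPS and AT3G56770 feature 1 lay below it on all 18, and AT3G56770 feature 2 on 10 of 18, so that for these features a difference can be understated. In whole tissue, fewer cells of a type and less RNA per cell cannot be told apart.

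**Figure D1:**
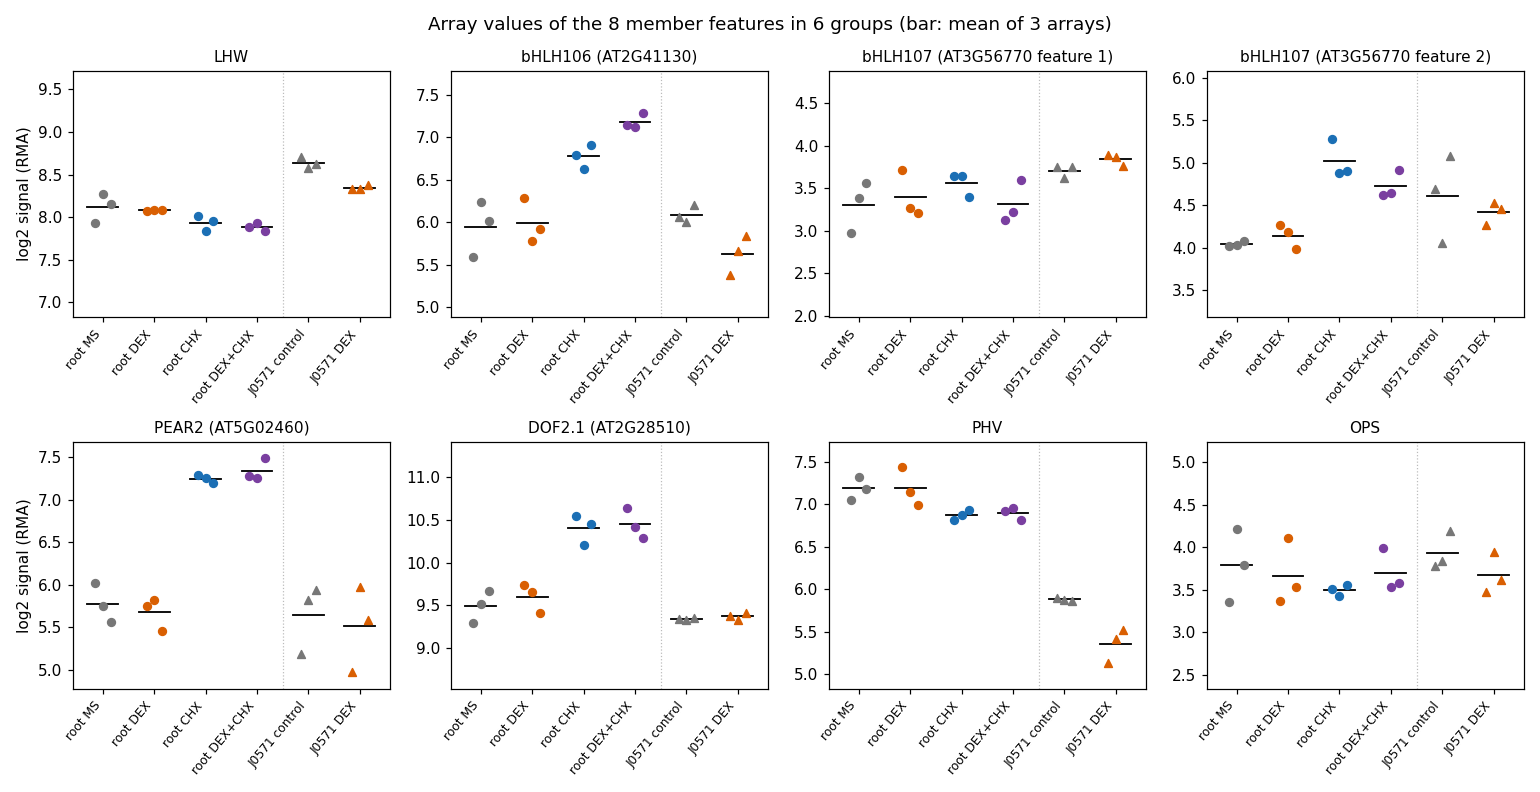
Log2 signal (y axis) of each member feature on every array in the 6 groups (x axis), circles for root tips and triangles for sorted J0571 cells, with bars at the group means and the same axis length of 2.9 log2 units in each panel. PEAR2 and DOF2.1 are higher on all 6 arrays with cycloheximide than on the other 12, and PHV is lower on all 6 J0571 arrays than on the 12 root tip arrays.

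Cycloheximide raised PEAR2, DOF2.1, bHLH106 and 1 of the 2 features of bHLH107 in root tips, whether dexamethasone was present or not. The other feature of bHLH107, LHW, PHV and OPS did not pass the threshold. Against root MS, 4 of the 8 member features were called (limma, Benjamini-Hochberg adjusted p under 0.05 over all features), all 4 higher with cycloheximide. Of all features 30.1% were called in this comparison, 10.4% as higher, and of the features of exactly 1 gene 13.3% were called as higher. With dexamethasone in both groups the same 4 member features were higher, where 33.7% of all features were called, 11.6% as higher, and 15.1% of the features of exactly 1 gene as higher. The members were chosen with earlier results of these data known, so these shares describe them and are no test of the set. The median change of the 8 member features was 0.55 without and 0.31 with dexamethasone. In each case it was -0.13 over all features and -0.05 over the features of exactly 1 gene.

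PEAR2 (AT5G02460), the mobile Dof factor of the early phloem, had the largest change with cycloheximide of the 7 genes, in both comparisons. Its log2 signal was 6.02, 5.75 and 5.57 in root MS and 7.29, 7.26 and 7.19 in root CHX. It was 5.75, 5.83 and 5.46 in root DEX and 7.29, 7.26 and 7.49 in root DEX+CHX. All 6 arrays with cycloheximide lay above all 6 without it. The log2 change was 1.47 (SE 0.13, adjusted p = 2.03e-05), or 2.76-fold, without dexamethasone and 1.66 (SE 0.13, adjusted p = 6.68e-06), or 3.16-fold, with it.

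DOF2.1 (AT2G28510), the other Dof factor, had the same order of groups at the top of its range. It read 9.29, 9.52 and 9.67 in root MS, 9.74, 9.65 and 9.40 in root DEX, 10.55, 10.20 and 10.45 in root CHX and 10.64, 10.42 and 10.29 in root DEX+CHX. Again no array with cycloheximide overlapped with one without. Its log2 change was 0.91 (SE 0.14, adjusted p = 0.000926), or 1.88-fold, and 0.85 (SE 0.14, adjusted p = 0.00114), or 1.81-fold. Within the same arrays PEAR2 rose by more than DOF2.1, by 0.68 log2 on average over both pairs of groups (0.56 without and 0.81 with dexamethasone). An exact two-sided permutation test within each pair of groups gave p = 0.005, the smallest its 400 arrangements allow. The permutation p was 0.0075 after adjustment over the 3 pairs of features compared in this way, which were chosen after their values were seen. These features of PEAR2 and DOF2.1 differ in signal level, and whether their log2 changes are on the same scale was not tested.

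bHLH106 (AT2G41130), a TMO5 relative, read 5.59, 6.24 and 6.01 in root MS, 6.29, 5.77 and 5.92 in root DEX, 6.79, 6.63 and 6.91 in root CHX and 7.14, 7.11 and 7.28 in root DEX+CHX. The arrays with cycloheximide lay above all others, and those of root DEX+CHX above those of root CHX. Its change with cycloheximide was 0.83 (SE 0.18, adjusted p = 0.00505), or 1.78-fold, without dexamethasone and 1.19 (SE 0.18, adjusted p = 0.000493), or 2.27-fold, with it. The difference between these changes, the interaction of both agents, was 0.36 (SE 0.25) and did not pass (adjusted p = 0.999).

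For bHLH107 (AT3G56770), the other TMO5 relative, the features did not behave alike. Feature 2 read 4.02, 4.03 and 4.08 in root MS and 5.27, 4.88 and 4.90 in root CHX, a log2 change of 0.97 (SE 0.13, adjusted p = 0.000286), or 1.97-fold. It read 4.26, 4.18 and 3.99 in root DEX and 4.61, 4.64 and 4.92 in root DEX+CHX, a change of 0.58 (SE 0.13, adjusted p = 0.00563), or 1.496-fold. Neither pair of groups overlapped. Feature 1, which stayed between 2.97 and 3.72 on the root arrays, changed by 0.26 (SE 0.19, adjusted p = 0.341) and -0.08 (SE 0.19, adjusted p = 0.783). Feature 2 against feature 1 was another of the 3 pairs tested by permutation, with a difference of 0.69 (exact permutation p = 0.005, 0.0075 adjusted). Feature 1 lay below the array median on every array, where a change can be understated, so no conclusion is drawn from this test. The change of bHLH106 minus that of feature 2 was -0.14 without and 0.60 with dexamethasone, opposite in sign, and their average of 0.23 did not pass (exact permutation p = 0.235).

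LHW, the partner of TMO5, read 7.93, 8.27 and 8.15 in root MS, 8.08, 8.09 and 8.08 in root DEX, 8.02, 7.83 and 7.96 in root CHX and 7.88, 7.93 and 7.83 in root DEX+CHX. All 12 values lay within 7.83 to 8.27, and root MS and root CHX overlapped. Its log2 change with cycloheximide was -0.18 (SE 0.10, adjusted p = 0.189, 95% confidence interval -0.40 to 0.03) without dexamethasone. With dexamethasone it was -0.20 (SE 0.10, adjusted p = 0.146, interval -0.41 to 0.02), although the arrays of root DEX+CHX and root DEX did not overlap. Without root MS replicate 1 the first of these passed, at -0.28 (adjusted p = 0.0481). With the array medians made equal the changes were -0.01 and 0.02, so that a direction for LHW depends on the scaling.

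PHV, the class III homeodomain factor, lay lower with cycloheximide but did not pass. It read 7.05, 7.32 and 7.18 in root MS, 7.43, 7.14 and 6.99 in root DEX, 6.81, 6.87 and 6.93 in root CHX and 6.92, 6.95 and 6.81 in root DEX+CHX. The root arrays with cycloheximide lay below all other root arrays. Its log2 changes were -0.32 (SE 0.12, adjusted p = 0.0706) and -0.29 (SE 0.12, adjusted p = 0.0891), and -0.14 and -0.07 with equal array medians. The first passed with quantile normalization (-0.34, adjusted p = 0.0489) and the second without root DEX replicate 3 (-0.39, adjusted p = 0.0371).

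OPS, the early phloem gene, ranged from 3.36 to 4.22 over the root arrays, and neighbouring groups overlapped throughout. Its changes with cycloheximide were -0.30 (SE 0.24, adjusted p = 0.384) and 0.04 (SE 0.24, adjusted p = 0.926). Of the 8 member features, 5 had root CHX and root MS arrays that did not overlap, where 44.7% of all features did not. For root DEX+CHX against root DEX it was 6 of 8, where 46.1% of all features did not overlap. The changes of all features with cycloheximide had a median of -0.13, and those of the features of exactly 1 gene a median of -0.05. With equal array medians the 4 called features stood at 1.64 (PEAR2), 1.15 (AT3G56770 feature 2), 1.08 (DOF2.1) and 1.00 (bHLH106) without dexamethasone, and at 1.88, 0.80, 1.07 and 1.40 with it, and each of these passed.

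**Figure D2:**
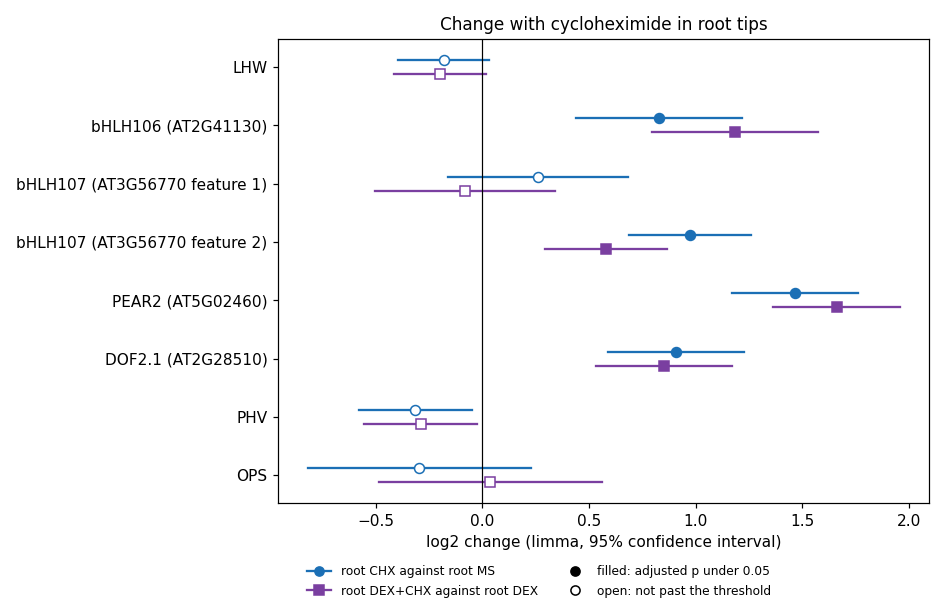
Log2 change with cycloheximide (x axis, limma estimate with its 95% confidence interval) for each member feature (y axis), as root CHX against root MS and as root DEX+CHX against root DEX; filled symbols passed the threshold. PEAR2, DOF2.1, bHLH106 and AT3G56770 feature 2 lie right of 0 in both comparisons, from 0.58 to 1.66, and LHW and PHV lie to the left, between -0.32 and -0.18.

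Dexamethasone for 1 h was not followed by a detected change in any of the 7 genes in root tips. In root DEX against root MS, 0 of 8 member features were called with limma, beside 0% of all features (0 of 38408, with 2368 at an unadjusted p under 0.05). The arrays of the groups overlapped for all 8, where 9.26% of all features did not overlap. The log2 changes ran from -0.12 for OPS (SE 0.24) to 0.11 for DOF2.1 (SE 0.14), with adjusted p of 0.987 to 0.998. LHW stood at -0.04 (95% confidence interval -0.25 to 0.18) and PHV at 0.00 (interval -0.26 to 0.27).

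With cycloheximide in both groups, the comparison asks which responses to TMO5-GR need no new protein. In root DEX+CHX against root CHX, limma again called 0 of 8 member features and 0% of all features, with 1189 at an unadjusted p under 0.05. bHLH106 was the only member whose groups did not overlap (1 of 8, beside 9.54% of all features), at 0.40 (SE 0.18, unadjusted p = 0.0445, adjusted p = 1.00). AT3G56770 feature 2 stood at -0.29 (SE 0.13, unadjusted p = 0.0457, adjusted p = 1.00). The values of these close relatives had opposite signs, but neither passed the threshold, and no difference between the genes is concluded from them. The interaction of DEX and CHX called 0 of 8 member features and 0% of all features (1684 at an unadjusted p under 0.05), with member changes from -0.39 for AT3G56770 feature 2 (SE 0.18) to 0.36 for bHLH106.

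DOF2.1, reported as a downstream gene of TMO5 and LHW, had log2 changes with dexamethasone of 0.11 in root tips, 0.05 in root tips with cycloheximide and 0.03 in J0571 cells. The 95% confidence intervals were -0.21 to 0.42, -0.27 to 0.37 and -0.20 to 0.26. PEAR2 stood at -0.10, 0.10 and -0.14 in the same comparisons, with intervals of -0.40 to 0.20, -0.20 to 0.39 and -0.87 to 0.60.

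Among the 7 genes, PHV, bHLH106 and LHW had the lowest changes with dexamethasone in sorted J0571 cells, and none of the 7 passed the threshold. Of the 8 member features limma called 0, where 0.0338% of all features were called and 2239 had an unadjusted p under 0.05. The arrays of the groups did not overlap for 4 of 8, beside 11.8% of all features. The median change over the member features was -0.22, and -0.0043 over all features.

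PHV read 5.90, 5.88 and 5.86 in J0571 control and 5.13, 5.41 and 5.52 in J0571 DEX. Its log2 change was -0.53 (SE 0.13, unadjusted p = 0.00579, adjusted p = 0.759). bHLH106 read 6.06, 5.996 and 6.21 in J0571 control and 5.38, 5.66 and 5.84 in J0571 DEX, a change of -0.46 (SE 0.15, unadjusted p = 0.0184, adjusted p = 0.782). LHW read 8.71, 8.58 and 8.62 in J0571 control and 8.33, 8.33 and 8.38 in J0571 DEX, a change of -0.29 (SE 0.10, unadjusted p = 0.0230, adjusted p = 0.791). In each of these genes every J0571 DEX array lay below every J0571 control array. Genes outside the 7 had values of similar size in this comparison without passing, DOF2.2 at -0.50 (SE 0.19), the ground tissue marker CO2 at -0.49 (SE 0.14) and the shoot marker RCA at -0.63 (SE 0.70). The other ground tissue markers stood at -0.08 (SGN3), 0.12 (JKD) and 0.15 (EN7), and the epidermal markers at -0.03 (EXPA7) and -0.09 (EXPA18). Their part in the values of PHV, bHLH106 and LHW was not tested.

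PEAR2 differed widely between replicates in both J0571 groups, at 5.19, 5.82 and 5.94 in J0571 control and 4.97, 5.98 and 5.59 in J0571 DEX. DOF2.1 was even, at 9.34, 9.32 and 9.35 in J0571 control and 9.38, 9.32 and 9.40 in J0571 DEX. AT3G56770 feature 1 was at 0.13 (SE 0.10, groups not overlapping), its feature 2 at -0.19 (SE 0.26) and OPS at -0.26 (SE 0.17).

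The response in J0571 cells was set against that in root tips by the difference of the log2 changes, in a fit over all 18 arrays. Ecotype, construct, time, protoplasting and sorting differ between these experiments and cannot be told apart. Against the root DEX response 0 of 8 member features were called with limma, beside 0.0521% of all features (2397 at an unadjusted p under 0.05). The difference was -0.53 for PHV (SE 0.17, adjusted p = 0.585), -0.51 for bHLH106 (SE 0.24, adjusted p = 0.803) and -0.25 for LHW (SE 0.13, adjusted p = 0.818). Against the root DEX+CHX response it was also 0 of 8, beside 0.0443% (2126 at an unadjusted p under 0.05), with bHLH106 at -0.86 (SE 0.24, adjusted p = 0.640) and PHV at -0.55 (SE 0.17, adjusted p = 0.790).

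**Figure D3:**
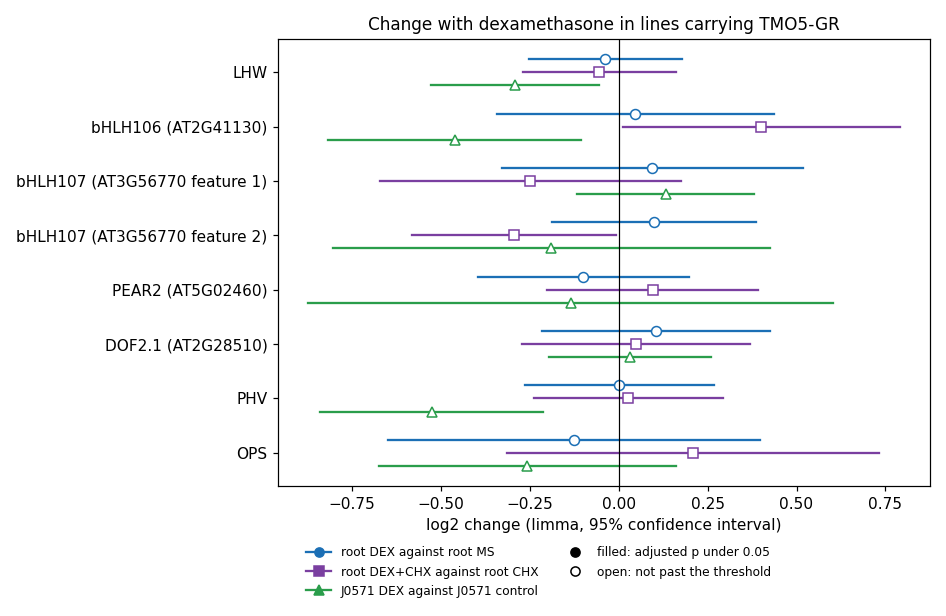
Log2 change with dexamethasone (x axis, limma estimate with its 95% confidence interval) for each member feature (y axis) in root tips, in root tips with cycloheximide in both groups, and in sorted J0571 cells; open symbols did not pass the threshold. No symbol is filled, and the intervals of PHV, bHLH106 and LHW in J0571 cells lie below 0 on their own, before adjustment over all features. In root tips with cycloheximide the interval of bHLH106 lies above 0 (0.01 to 0.79) and that of AT3G56770 feature 2 below 0 (-0.58 to -0.007), likewise before adjustment.

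Without dexamethasone, sorted J0571 cells had less PHV and more LHW than root tips. Ecotype, construct, time, protoplasting and sorting also differ between these 2 groups and cannot be told apart from cell type. PHV was at 5.88 ± 0.02 in J0571 control and 7.18 ± 0.14 in root MS, a log2 difference of -1.31 (SE 0.12, adjusted p = 3.56e-07), or 2.47-fold lower. LHW was at 8.64 ± 0.07 against 8.12 ± 0.17, a difference of 0.52 (SE 0.09, adjusted p = 0.000174), or 1.43-fold higher. AT3G56770 feature 2 was higher by 0.57 (SE 0.20, adjusted p = 0.0261), from 4.04 ± 0.03 to 4.61 ± 0.51, with overlapping arrays. That call was lost without root MS replicate 1 (0.0602), root MS replicate 2 (0.0597), J0571 control replicate 1 (0.0722) or J0571 control replicate 3 (0.145, with the difference at 0.33), and when only these groups were fitted (0.124).

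In this comparison 3 of 8 member features were called with limma, 2 higher and 1 lower in J0571 cells, where 48.9% of all features were called. The arrays did not overlap for 3 of 8, beside 52.9% of all features. These shares of the members are not above the background. The remaining differences were 0.40 (SE 0.17, adjusted p = 0.0564) for AT3G56770 feature 1, 0.14 (SE 0.17) for bHLH106, 0.14 (SE 0.22) for OPS, -0.13 (SE 0.23) for PEAR2 and -0.16 (SE 0.13) for DOF2.1. With equal array medians PHV stood at -1.06 and LHW at 0.76, both past the threshold.

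The label of the sorted cells was compared with markers of root cell types. In J0571 control against root MS, 48.9% of all 38408 features were called, 10187 as higher and 8595 as lower. Of 16 ground tissue markers 4 have a feature of exactly 1 gene, and all 4 were higher in J0571 control than in root MS, EN7 by 1.15 (SE 0.19), JKD by 0.87 (SE 0.11), CO2 by 0.73 (SE 0.13) and SGN3 by 0.58 (SE 0.09). CO2 stayed below the array median in every group. Of 7 epidermis and root hair markers 2 have one, and both were lower, EXPA7 at -2.50 (SE 0.18) and EXPA18 at -2.27 (SE 0.26). The shoot marker RCA, 1 of 4, stood at -0.05 (SE 0.51). Of 12 stele and xylem markers and 5 phloem markers 0 have a feature of exactly 1 gene, so these cell types were not analysed here. The higher ground tissue and lower epidermal markers were seen in the same single comparison as the differences of PHV and LHW. Any part of cell types in the levels of PHV and LHW was not tested.

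**Figure D4:**
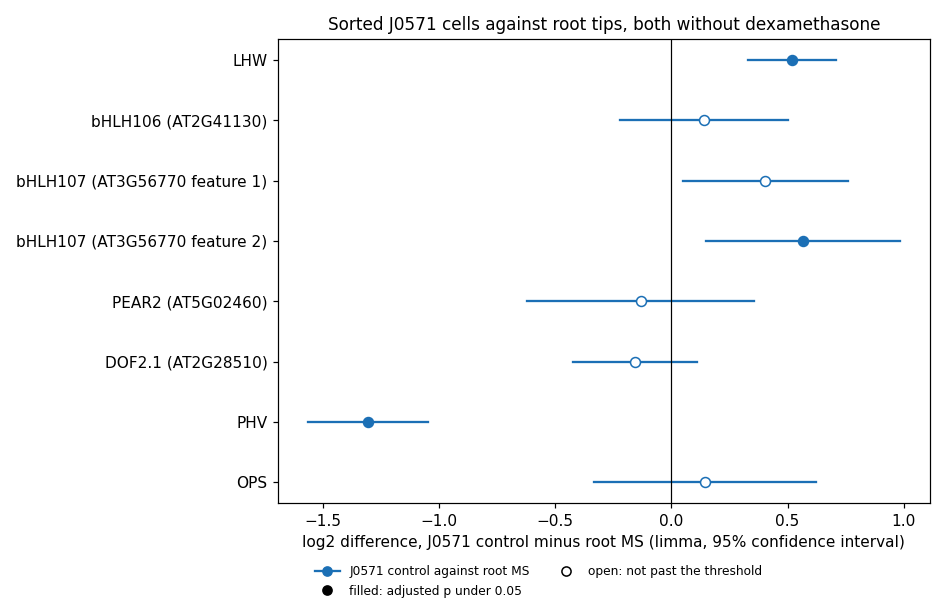
Log2 difference of J0571 control minus root MS (x axis, limma estimate with its 95% confidence interval) for each member feature (y axis); filled symbols passed the threshold. PHV lies at -1.31, LHW at 0.52 and AT3G56770 feature 2 at 0.57, and the intervals of bHLH106, PEAR2, DOF2.1 and OPS include 0.

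Ordered by group mean, the members fell into different orders. For LHW, J0571 control came first and J0571 DEX next, followed by the root groups without and then those with cycloheximide, and among neighbours only root MS with root DEX and root CHX with root DEX+CHX overlapped. For bHLH106 root DEX+CHX and root CHX came first, each apart from its neighbours, and the other 4 groups overlapped in turn. PEAR2 and DOF2.1 had a single gap, between root CHX and the 4 groups without cycloheximide. For PHV the root groups without cycloheximide came first, then those with it, then J0571 control and J0571 DEX, with gaps between these steps. The 6 group means of OPS spanned 0.44 and overlapped throughout. Those of PHV spanned 1.83, of PEAR2 1.83, of bHLH106 1.55, of DOF2.1 1.11, of AT3G56770 feature 2 0.97, of LHW 0.75 and of AT3G56770 feature 1 0.54.

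The pathway around these genes is thinly covered: 11 of 43 listed loci have a feature of exactly 1 gene, 4 of them outside the 7 genes. Among the TMO5 and LHW family (3 of 8 loci, on 4 features), 2 features rose with cycloheximide and 2 did not pass, as described for bHLH106 and bHLH107. These 4 are all among the member features counted above, and 10.4% of all features were called higher without and 11.6% with dexamethasone. Of the SAC51 family, bHLH proteins known to bind LHW and counter its pairing with TMO5, SACL1 (AT5G09460) rose with cycloheximide by 0.76 (SE 0.15, adjusted p = 0.00324) and, with dexamethasone present, by 0.56 (SE 0.15, adjusted p = 0.0140). SACL2 (AT5G50010) stood at 0.35 (SE 0.12, adjusted p = 0.0540) and 0.31 (SE 0.12, adjusted p = 0.0744). With dexamethasone in root tips SACL2 stood at 0.54 (SE 0.12, adjusted p = 0.426) and SACL1 at 0.40 (SE 0.15, adjusted p = 0.730). With cycloheximide in both groups SACL2 stood at 0.50 (SE 0.12) and SACL1 at 0.20 (SE 0.15). In J0571 cells with dexamethasone SACL2 stood at -0.13 (SE 0.29) and SACL1 at 0.20 (SE 0.25). None of these dexamethasone changes passed the threshold. In J0571 control both lay below root MS, SACL2 at -0.998 (SE 0.21, adjusted p = 0.00106) and SACL1 at -0.62 (SE 0.20, adjusted p = 0.0192), while LHW lay above it.

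Of the vascular Dof factors 3 of 8 loci are covered. DOF2.2 (AT2G28810) did not follow PEAR2 and DOF2.1: it stood at 0.12 (SE 0.12, adjusted p = 0.497) and 0.05 (SE 0.12, adjusted p = 0.792) with cycloheximide. In J0571 control it was lower than in root MS, at -0.42 (SE 0.15, adjusted p = 0.0349). Among the class III homeodomain factors PHV was the only one covered, of 5. Of 12 phloem genes OPS and CLE45, a peptide that restrains early phloem, are covered, and CLE45 did not pass in any comparison and lay below the array median on all 18 arrays. None of the 6 genes listed as acting upstream or downstream of the dimer is covered.

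Genes of similar pattern were sought for the 4 members whose group means spanned at least 1 log2, by the root mean square difference of the 6 group means after each gene's own mean was subtracted. For PEAR2 they were AT4G28420 (0.04), CML41 (0.06) and AT1G19020 (0.06). For DOF2.1 they were AT3G02070 (0.02), AT5G39865 (0.05) and AT1G63880 (0.05), and AT3G02070 was the closest match found for these 4 members. For bHLH106 they were AT5G05090 (0.09), AT3G13980 (0.10) and AT3G03280 (0.10), and for PHV AT3G53100 (0.06), AT4G15430 (0.07) and AT3G20380 (0.07). These values describe likeness in 6 group means of the same arrays and say nothing of shared control.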

How the data were processed

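Total RNA was reverse transcribed to whole-transcript cDNA and labelled with biotin, per the labels' protocols. The authors deposited log2 signals made with RMA, per the submitters' processing notes. The RMA version and whether it was run once over the 18 arrays: not given in the sources used here. For arrays, their number limits the precision. Features were named from the platform's probe table (16722 of 38408 for exactly 1 gene, 16574 of them linked to a locus by Entrez identifier through TAIR10.1).

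Groups were compared on the deposited values with limma 3.58.1 in R 4.3.3 (lmFit, eBayes, 1 mean per group), two-sided, with Benjamini-Hochberg adjustment over all 38408 features and a threshold of 0.05 on adjusted p. One fit covered the 12 root arrays, another the 6 J0571 arrays, and a fit of all 18 gave comparisons across them. The procedure was tested on simulated data. No label says whether repeats were separate cultures, so p-values measure the spread between these samples, which may be technical. Named were the 7 genes, pathway list and bHLH members that passed, and the 3 genes most like each member spanning 1 log2. Members and lists were chosen with earlier results of these data known. Alternatives were other sets of arrays, quantile normalization, equal array medians, trend and robust options, fewer features, a replicate block and leaving out each array. Sequences were not used here.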

Additional observations from a re-analysis of the deposited data

How the results depend on the processing

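The number of member features called stayed at 0 in all 3 dexamethasone comparisons, the interaction and both differences between experiments under the alternatives run. It was 4 to 6 for root CHX against root MS, 4 to 5 for root DEX+CHX against root DEX and 2 to 4 for J0571 control against root MS, and with the replicate block 4, 4 and 3. PEAR2, DOF2.1, bHLH106 and AT3G56770 feature 2 passed under all 15 alternatives in both cycloheximide comparisons, and LHW and PHV under all 14 for J0571 control against root MS. The replicate numbers showed no pairing in root tips. Deviations of same-numbered arrays correlated there with r from -0.24 to 0.197 (over 0.1 in 3 of 18 pairs). In J0571 cells r was 0.018 to 0.254 for same-numbered arrays (over 0.1 in 2 of 3 pairs) and -0.23 to 0.12 for differently numbered ones. These few pairs cannot decide whether the J0571 arrays were paired by number. The block changed no call of a member.

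Quantile normalization also brought AT3G56770 feature 1 past the threshold for root CHX against root MS (0.59, adjusted p = 0.0303). For J0571 control against root MS that feature passed with quantile normalization (adjusted p = 0.00538), equal array medians (0.00365), dim features left out (0.0446), only features of 1 named gene (0.0468) and without root MS replicate 3 (0.0235). Counts over all features ran from 4412 to 12201 for root CHX against root MS (11546 as reported), 4980 to 13308 for root DEX+CHX against root DEX (12935) and 8427 to 22337 for J0571 control against root MS (18782), lowest with only features of 1 named gene, where fewer are tested. They ran from 0 to 15 for root DEX against root MS (0), 0 with the replicate block to 68 in the fit of all 18 arrays for J0571 DEX against J0571 control (13), 8 to 29 for the difference from root DEX (20) and 6 to 21 for that from root DEX+CHX (17).

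Changes of sign concerned values that had not passed, and the cause was not tested. With quantile normalization these were PHV (-0.0052) for root DEX against root MS, OPS (0.0437) for root CHX against root MS, AT3G56770 feature 1 (0.29) for root DEX+CHX against root DEX, and PEAR2 for the difference from root DEX (0.0116) and for J0571 control against root MS (0.0491). With equal array medians they were PHV (-0.0409) for root DEX against root MS, LHW (0.0186) and AT3G56770 feature 1 (0.13) for root DEX+CHX against root DEX, LHW (0.0293) in the interaction, PEAR2 (0.0404) and DOF2.1 (0.0034) in the difference from root DEX, DOF2.1 (0.0137) in that from root DEX+CHX, and PEAR2 (0.11) and DOF2.1 (0.087) for J0571 control against root MS.

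With 1 array left out, the ranges that crossed 0 were, for root DEX against root MS, -0.13 to 0.19 for bHLH106, -0.071 to 0.22 for AT3G56770 feature 1, -0.21 to 0.0207 for PEAR2, -0.12 to 0.10 for PHV, -0.34 to 0.0877 for OPS and -0.13 to 0.0399 for LHW. For root DEX+CHX against root CHX they were -0.0023 to 0.0694 for PHV and -0.0495 to 0.13 for DOF2.1, and for root DEX+CHX against root DEX -0.22 to 0.0771 for AT3G56770 feature 1 and -0.11 to 0.26 for OPS. In the interaction they were -0.094 to 0.0778 for LHW, -0.15 to 0.0446 for DOF2.1 and -0.0737 to 0.15 for PHV. In J0571 DEX against J0571 control they were -0.46 to 0.0438 for AT3G56770 feature 2 and -0.37 to 0.14 for PEAR2. In the difference from root DEX they were -0.17 to 0.0276 for DOF2.1, -0.34 to 0.0876 for OPS, -0.0899 to 0.20 for AT3G56770 feature 1 and -0.27 to 0.23 for PEAR2. In that from root DEX+CHX they were -0.17 to 0.34 for AT3G56770 feature 2, -0.0981 to 0.0813 for DOF2.1 and -0.46 to 0.0401 for PEAR2. For J0571 control against root MS they were -0.0397 to 0.29 for bHLH106, -0.0702 to 0.36 for OPS and -0.28 to 0.10 for PEAR2.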

Other observations

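Other bHLH genes that the reference annotation names as such were looked at beside bHLH106 and bHLH107, and 9 of 33 have a feature of exactly 1 gene. With cycloheximide alone 2 of the 9 rose and 2 fell, where 30.1% of all features were called. BHLH92 rose by 2.81 (SE 0.54, adjusted p = 0.00286) and AT1G72210 by 1.53 (SE 0.15, adjusted p = 3.46e-05). bHLH115 fell by 0.56 (SE 0.08, adjusted p = 0.000461) and bHLH104 fell by 0.37 (SE 0.10, adjusted p = 0.0202). With dexamethasone present 4 rose and 1 fell, beside 33.7% of all features, with BHLH92 at 3.62 (SE 0.54, adjusted p = 0.000501), AT1G72210 at 1.52 (SE 0.15, adjusted p = 2.95e-05), bHLH34 at 0.78 (SE 0.18, adjusted p = 0.00679), AT1G22490 at 0.38 (SE 0.13, adjusted p = 0.0412) and bHLH115 at -0.56 (SE 0.08, adjusted p = 0.000351). In J0571 control against root MS 2 of the 9 were higher and 6 lower, beside 48.9% of all features called. The higher ones were AT1G72210 at 1.69 (SE 0.21, adjusted p = 7.85e-06) and BHLH92 at 1.47 (SE 0.52, adjusted p = 0.0291). The lower ones were bHLH115 at -1.10 (SE 0.11, adjusted p = 5.11e-07), bHLH104 at -1.01 (SE 0.12, adjusted p = 4.09e-06), bHLH121 at -0.86 (SE 0.09, adjusted p = 1.66e-06), BHLH101 at -0.86 (SE 0.18, adjusted p = 0.00079), AT1G22490 at -0.60 (SE 0.15, adjusted p = 0.00316) and ILR3 at -0.40 (SE 0.09, adjusted p = 0.00103). Of the 19 genes that the annotation names as Dof, 0 have a feature of exactly 1 gene, so they could not be compared. PEAR2, DOF2.1 and DOF2.2, which have one, are not among these 19.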
